A study of Mus musculus with 9 samples.

Results

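Olig1, Olig2 and 7 further genes of neural development were followed through 9 poly(A)+ RNA libraries of mouse embryonic stem cells. The 9 genes are Olig1, Olig2, Sox1, Nes, Tubb3, Map2, Ncam1, Crabp1 and Crabp2. They were found by symbol among 30232 gene rows, each in a row of its own, and all 9 entered the fit over 12645 tested genes. They were chosen by their levels in these libraries by cell line and run, which had been seen before, so differences between lines and runs are given below as a description without a test, and tests are kept to genotype.

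The libraries came from 5 cultures labelled Gzf1 knockout (KO) and 4 labelled wild type (WT). KO replicates 1 and 2 and WT replicates 1 and 2 were RGM cells sequenced in run2. KO replicates 3, 4 and 5 and WT replicate 3 were V6.5 cells, and WT replicate 4 was a Cas9-GFP line, all sequenced in run1. All cells grew in serum medium with LIF over irradiated fibroblast feeders, which were depleted before harvest. The RGM cells are not described further in the labels, nor is it said which Gzf1 sequence was removed or whether the KO libraries are separate clones, so the p-values below cover only library-to-library spread, part of which may be technical. Since run2 held RGM cells alone and run1 held none, run and line cannot be told apart.

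Olig1 and Olig2 are basic helix-loop-helix transcription factors that act in progenitors of the ventral neural tube, where they direct the formation of motor neurons and oligodendrocytes. Sox1 marks early neuroectoderm, nestin (Nes) is an intermediate filament of neural progenitors, and Tubb3, Map2 and Ncam1 encode a neuronal tubulin, a microtubule-associated protein of dendrites and a cell adhesion molecule. Crabp1 and Crabp2 bind retinoic acid in the cytoplasm, a signal that drives embryonic stem cells towards neural fates. Tubb3, Ncam1, Nes and Crabp2 are also expressed outside the nervous system, so none of these genes alone identifies a neural cell.

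The libraries held 2568489 to 3704162 counts in run2 and 4872127 to 7072697 in run1. A count of 3, taken as the floor for a library, was worth 0.809 to 1.18 CPM (the count scaled to the size of its library) in run2 and 0.412 to 0.627 CPM in run1. The floor covers counting error only. The pluripotency genes fixed for a check of the cell type were all detected and tested, 15 of 15, with summed levels of 6755 to 7116 CPM in KO and 7065 to 7578 CPM in WT libraries of run2, and of 6414 to 8331 CPM in KO and 6937 to 8201 CPM in WT libraries of run1. These sums cover differences in both directions, with 2 of the 15 at least 2-fold higher and 3 at least 2-fold lower in run2. Zfp42, a marker of naive pluripotency, was at 348 ± 33.9 CPM in run2 (SD, n = 4) and 35.5 ± 2.89 CPM in run1 (SD, n = 5), and Tdgf1, a Nodal co-receptor, at 559 ± 38.5 CPM in run2 and 1535 ± 402 CPM in run1. Gzf1, the targeted gene, was at 7.19 ± 4.78 CPM in KO (SD, n = 5) and 21.3 ± 10.2 CPM in WT libraries (SD, n = 4), with 2 KO libraries above the lowest WT library. Its log2 fold change, KO over WT, was -1.45 (SE 0.42; edgeR, unadjusted p = 0.0048, adjusted p = 0.9998). Both KO libraries of run2 were below both WT libraries there, and the genotypes overlapped in run1. The libraries count 3' ends of transcripts, so a Gzf1 count need not report an edit elsewhere in the gene.

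**Figure D1:**
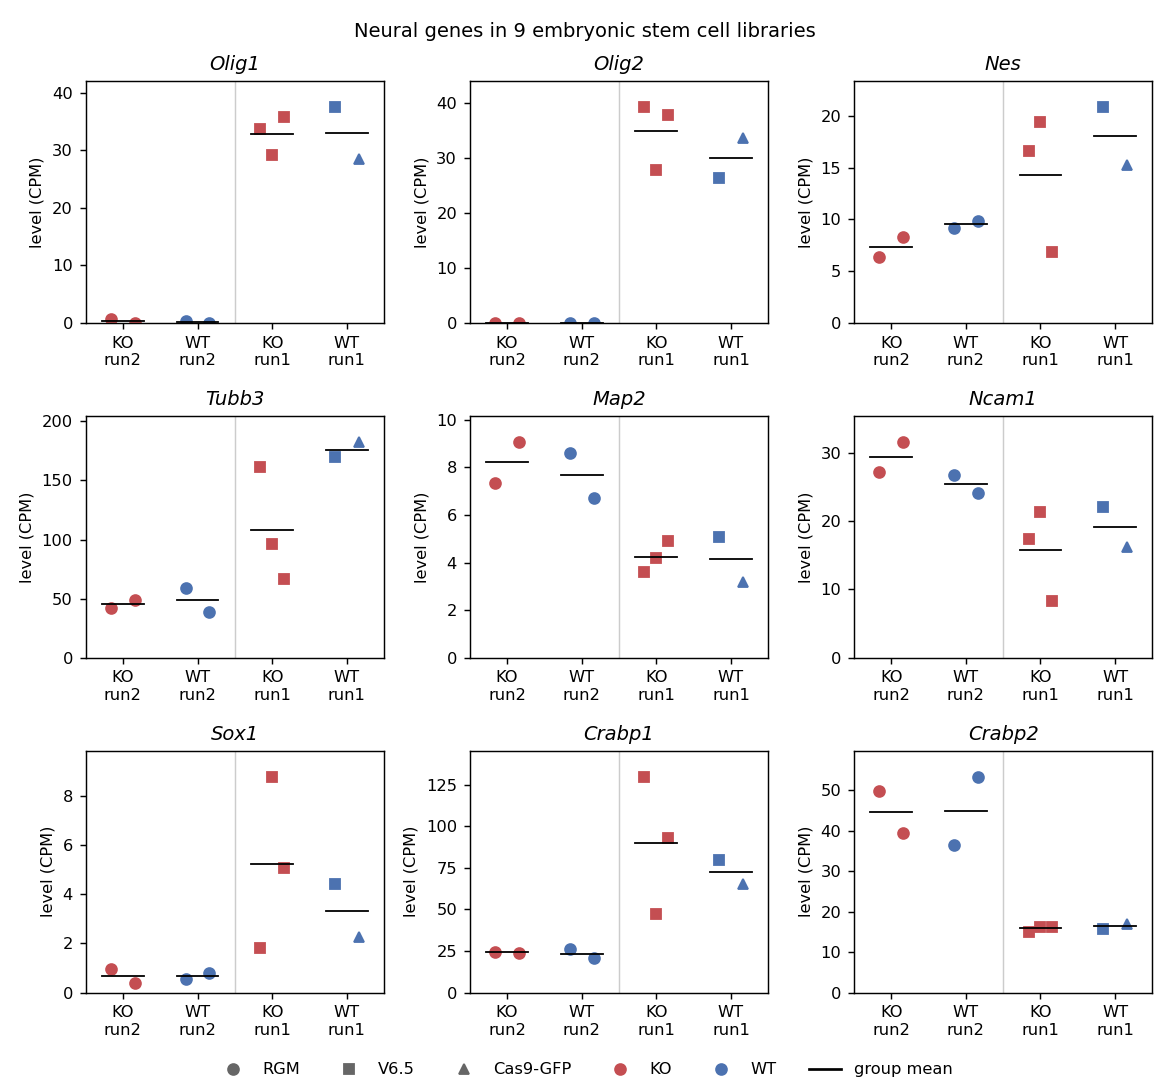
Level in CPM of each of the 9 genes in each library, with KO left of WT within run2 (RGM) and within run1 (V6.5 and Cas9-GFP); marker shape gives the cell line, the horizontal bar is the group mean. Olig1 and Olig2 lie between 26.4 and 39.3 CPM in the 5 run1 libraries and at 0 to 0.641 CPM in the 4 run2 libraries.

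Olig1 and Olig2 were on in every run1 library and at or near 0 in every run2 library. Olig2 had 0 counts in KO replicates 1 and 2 and 0 counts in WT replicates 1 and 2, the RGM cells of run2. The run1 levels of Olig2 were 39.3, 27.8 and 37.9 CPM in KO replicates 3, 4 and 5, against 26.4 CPM in WT replicate 3 and 33.5 CPM in WT replicate 4. The run1 values spread by a factor of 1.49 and no run2 library held a read. With 3 counts over the 4 run2 libraries together as the floor (0.252 CPM), Olig2 was at least 131-fold lower in run2 than in run1, where the pooled level was 33.2 CPM.

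Olig1 followed the same division. In run2 it had 0.641 and 0 CPM in KO replicates 1 and 2 and 0.270 and 0 CPM in WT replicates 1 and 2, values that rest on 3 counts in all. The run1 levels of Olig1 were 33.6, 29.2 and 35.7 CPM in KO replicates 3, 4 and 5, against 37.5 CPM in WT replicate 3 and 28.5 CPM in WT replicate 4. Pooled over libraries, run1 was 132 times the level of run2, with an exact 95% interval from counting alone of 45.2 to 643. The Cas9-GFP library lay just below the lowest V6.5 library for Olig1 and within the V6.5 range for Olig2, so the lines of run1 could not be ordered beyond their spread, while RGM stood below both.

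Among all tested genes ordered by the run2 minus run1 difference of mean log2(CPM + 1), Olig2 ranked 3 and Olig1 ranked 5 from the low end of 12645. The added 1 CPM shrinks the difference of genes near 0, to 33.6-fold for Olig2 and 28.1-fold for Olig1, so these ranks depend on it. By a rule set after the values were seen, rows over 10 CPM in each run1 library with at most 3 counts over all run2 libraries, 4 of 8156 rows qualified, which were Olig1, Olig2, AI662270 and Ubd. AI662270 had 0 counts in run2, against 11.9 to 39.1 CPM in run1. Ubd, which encodes a ubiquitin-like modifier, had 1 count in run2, against 19.4 to 28.5 CPM in run1. The reverse pattern, over 10 CPM in each run2 library with at most 3 counts over run1, was found in 0 of 8592 rows. Run1 held more libraries and deeper ones, so 3 counts there stand for a lower level and the reverse rule was stricter. The numbers of rows under these rules cannot be set side by side.

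Likeness of pattern was measured as the root mean square difference of centred log2(CPM + 1) over the 9 libraries. It depends on the added 1 CPM in the same way, so a gene near to Olig1 or Olig2 need not share the size of their difference in counts. The genes nearest to Olig1 were Olig2 (0.31), Ubd (0.34) and Rps2 (0.35), and those nearest to Olig2 were Hspa8 (0.28), Olig1 (0.31) and Rps2 (0.36). Hspa8, a constitutive chaperone of the Hsp70 family, was at 19.1 to 27.2 CPM in run2, against 833 to 1134 CPM in run1. Rps2, a protein of the small ribosomal subunit, was at 65.5 to 81.1 CPM in run2, against 1435 to 2297 CPM in run1. Both are needed in all growing cells and both have related copies in the genome, with which reads can be shared. The division between runs thus touched widely expressed genes as well as Olig1 and Olig2, and whether the runs were counted alike was not tested.

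**Figure D2:**
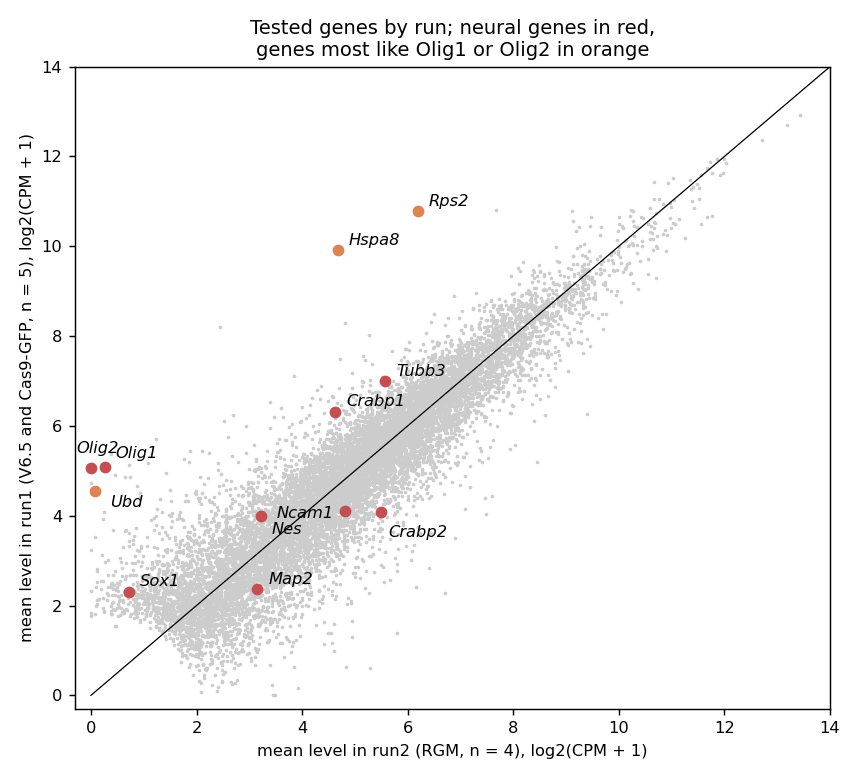
Mean log2(CPM + 1) of each tested gene in run2 (RGM, n = 4; horizontal axis) and run1 (V6.5 and Cas9-GFP, n = 5; vertical axis), with the line of equal level. Olig1, Olig2 and Ubd stand at the left edge, Hspa8 and Rps2 far above the line, and Sox1, Tubb3 and Crabp1 above it, whereas Map2, Ncam1 and Crabp2 lie below it.

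Olig2 and Olig1 are neighbours on chromosome 16, Olig2 at 91225457 to 91228677 and Olig1 at 91269772 to 91271933 (mm10, GENCODE M21), both on the plus strand, with their starts 44.3 kb apart. Olig1 has 1 exon and Olig2 has 2. Within 300 kb of the Olig2 start the annotation lists 30 genes, of which 10 had a row and 7 were tested. The 5 tested genes other than Olig1 and Olig2 were less than 2-fold apart between the runs. Synj1, a phosphoinositide phosphatase, had a difference in mean log2(CPM + 1), run2 minus run1, of -0.19, and Paxbp1, which binds Pax proteins, one of -0.24. Ifnar2, Il10rb and Ifnar1, which encode cytokine receptor chains, had differences of 0.70, 0.20 and 0.17. Ifnar2 did not overlap between the runs, at 32.3 to 42.2 CPM in run2 and 16.9 to 27.4 CPM in run1. The Gm15966 transcript overlaps Olig1 on the opposite strand and was not analysed here, and how strand was handled in counting is not stated in the labels.

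**Figure D3:**
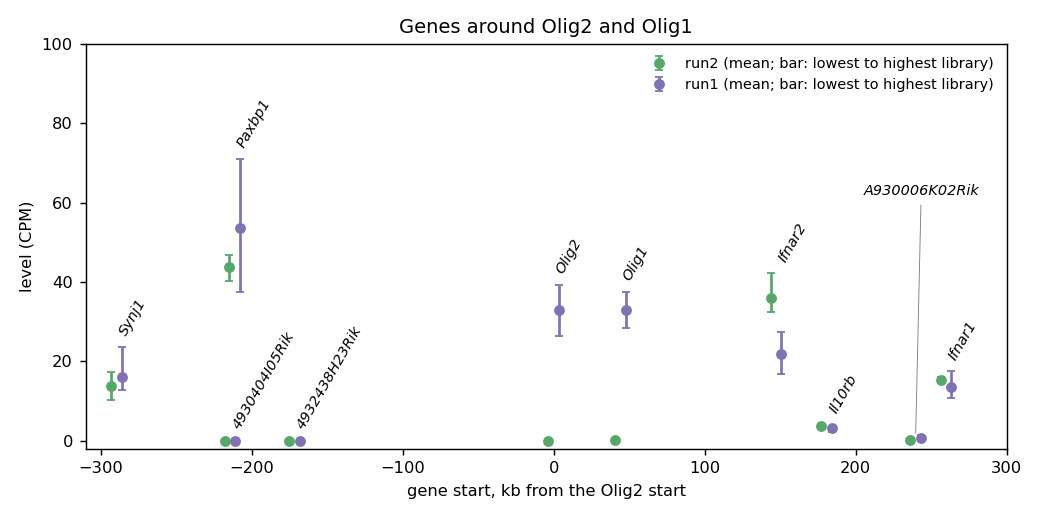
Mean level in CPM (bar from the lowest to the highest library) of the 10 genes with a row within 300 kb of the Olig2 start, by distance of the gene start in kb, with run2 drawn left of run1. Olig2 and Olig1 are at 26.4 CPM or more in every run1 library and at 0.641 CPM or less in every run2 library. Synj1, Paxbp1, Il10rb and Ifnar1 have overlapping bars, while the bars of Ifnar2 do not overlap, with run2 higher.

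Sox1, a transcription factor of the SoxB1 family, was low throughout. Its single exon lies on chromosome 8 at 12395295 to 12400126, plus strand. It had 0.961 and 0.395 CPM in KO replicates 1 and 2 and 0.539 and 0.789 CPM in WT replicates 1 and 2, which is 1 to 3 counts per library. In run1 it had 1.80, 8.77 and 5.08 CPM in KO replicates 3, 4 and 5, against 4.40 and 2.26 CPM in WT replicates 3 and 4. Every run2 library lay below every run1 library, and the run1 libraries spread by a factor of 4.88. The difference in mean log2(CPM + 1), run2 minus run1, was -1.57. Olig1, Olig2 and Sox1 passed the filter on low counts through run1 alone, since 0 run2 libraries reached its level of 2.05 CPM, and for them the filter itself favours a difference between runs. The noncoding gene Sox1ot is annotated as overlapping Sox1 on the same strand, so part of the Sox1 counts may belong to it.

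The cytoskeletal genes did not move together. They lie at 123411424 to 123422015 on chromosome 8 (Tubb3), 66175273 to 66442583 on chromosome 1 (Map2) and 87971078 to 87980451 on chromosome 3 (Nes), all on the plus strand. Tubb3 was at 42.3 and 48.5 CPM in KO and 58.8 and 38.7 CPM in WT libraries of run2. Tubb3 in run1 was at 162, 96.3 and 66.7 CPM in KO replicates 3, 4 and 5, against 169 and 183 CPM in WT replicates 3 and 4. All run2 values lay below all run1 values, 2.68-fold on the log2(CPM + 1) scale, and Cas9-GFP was above each V6.5 library. Map2 went the other way, with 7.37 and 9.08 CPM in KO and 8.63 and 6.71 CPM in WT libraries of run2. Map2 in run1 was at 3.59, 4.18 and 4.92 CPM in KO replicates 3, 4 and 5, against 5.08 and 3.20 CPM in WT replicates 3 and 4. All run2 values of Map2 lay above all run1 values, 1.73-fold on the same scale. Nes was at 6.41 and 8.29 CPM in KO and 9.17 and 9.87 CPM in WT libraries of run2. The run1 levels of Nes were 16.6, 19.4 and 6.88 CPM in KO replicates 3, 4 and 5, against 20.9 and 15.3 CPM in WT replicates 3 and 4. Of the 9 genes Nes alone had overlapping runs, through KO replicate 5, and its means differed 1.70-fold.

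Ncam1, the adhesion molecule, encoded on the minus strand of chromosome 9 at 49502136 to 49798925, was at 27.2 and 31.6 CPM in KO and 26.7 and 24.1 CPM in WT libraries of run2. The run1 levels of Ncam1 were 17.4, 21.3 and 8.36 CPM in KO replicates 3, 4 and 5, against 22.1 and 16.2 CPM in WT replicates 3 and 4. The run2 libraries lay above the run1 libraries, 1.64-fold on the log2(CPM + 1) scale, and KO replicate 5 was again the lowest. Overlapping transcripts are annotated for Tubb3, Map2 and Ncam1 too, so that part of their counts may belong to those.

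The genes of the retinoic acid-binding proteins, Crabp1 on chromosome 9 at 54764748 to 54773110 and Crabp2 on chromosome 3 at 87948666 to 87953376, both on the plus strand, went in opposite directions. Crabp1 was at 24.3 and 24.1 CPM in KO and 26.1 and 20.5 CPM in WT libraries of run2. Crabp1 in run1 was at 130, 47.0 and 93.1 CPM in KO replicates 3, 4 and 5, against 80.0 and 65.4 CPM in WT replicates 3 and 4. Crabp1 was therefore lower in each run2 library, by 3.22-fold on the log2(CPM + 1) scale, and spread by a factor of 2.76 within run1. Crabp2 was at 49.6 and 39.5 CPM in KO and 36.4 and 53.3 CPM in WT libraries of run2. Crabp2 in run1 was at 15.1, 16.3 and 16.2 CPM in KO replicates 3, 4 and 5, against 15.8 and 17.0 CPM in WT replicates 3 and 4. Crabp2 was higher in each run2 library, by 2.65-fold, and spread by a factor of only 1.13 within run1, where the Cas9-GFP library was the highest.

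Counted together, 5 of the 9 genes were at least 2-fold lower in run2, against 8.56% of all tested genes, and 1 was at least 2-fold higher, against 9.21%. All run2 libraries were below all run1 libraries for 5 genes and above them for 3, and over all tested genes these shares were 19.2% and 19.4%. Since the levels by line chose the genes, nothing is read from these counts. The directions held in the WT libraries alone, in the KO libraries alone and between RGM and V6.5 cells without the Cas9-GFP library. Fibroblast genes of the feeder layer differed between the runs as well. Of 22 tested, 10 were at least 2-fold higher and 0 at least 2-fold lower in run2, and the summed level of all 24 rows was 3705 to 5976 CPM in KO and 4317 to 4732 CPM in WT libraries of run2, against 2403 to 3223 CPM in KO and 2120 to 2716 CPM in WT libraries of run1. No row of the list was at 0 in either run, and the part of feeder RNA in the higher Map2, Ncam1 and Crabp2 of run2 was not tested. In bulk libraries fewer cells of a type and less RNA per cell cannot be told apart.

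RefSeq promoter windows (GRCm38.p6, 250 bases before to 50 after the start used there) were available for 6 of the 9 genes. That start can differ from the GENCODE start given above. The Sox1 window begins at 12395269 and the GENCODE start of Sox1 is 12395295. The Tubb3 window begins at 123411303 and the GENCODE start of Tubb3 is 123411424. Most of each of these windows therefore lies within the GENCODE gene. The windows of Olig2 and Map2 also reach more than 50 bases into the GENCODE gene. The windows are shown for those genes whose runs did not overlap, to set the genes low in run2 beside Map2, which was high. All are on the plus strand and are given 5′ to 3′, with CG dinucleotides, the sites of DNA methylation, in capitals.
Olig2 (chr16:91225300-91225599): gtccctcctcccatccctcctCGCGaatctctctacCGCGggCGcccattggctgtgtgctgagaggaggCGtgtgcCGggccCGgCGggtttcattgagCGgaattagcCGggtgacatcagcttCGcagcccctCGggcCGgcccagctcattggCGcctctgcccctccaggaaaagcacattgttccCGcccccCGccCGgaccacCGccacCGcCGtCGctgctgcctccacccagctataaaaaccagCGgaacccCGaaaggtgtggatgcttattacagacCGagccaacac
Sox1 (chr8:12395269-12395568): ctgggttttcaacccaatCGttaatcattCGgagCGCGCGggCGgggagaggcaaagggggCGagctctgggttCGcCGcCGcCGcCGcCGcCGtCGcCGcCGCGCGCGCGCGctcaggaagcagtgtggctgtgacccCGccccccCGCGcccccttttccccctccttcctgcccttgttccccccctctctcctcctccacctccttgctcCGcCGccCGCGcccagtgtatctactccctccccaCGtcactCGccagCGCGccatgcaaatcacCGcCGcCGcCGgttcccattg
Tubb3 (chr8:123411303-123411602): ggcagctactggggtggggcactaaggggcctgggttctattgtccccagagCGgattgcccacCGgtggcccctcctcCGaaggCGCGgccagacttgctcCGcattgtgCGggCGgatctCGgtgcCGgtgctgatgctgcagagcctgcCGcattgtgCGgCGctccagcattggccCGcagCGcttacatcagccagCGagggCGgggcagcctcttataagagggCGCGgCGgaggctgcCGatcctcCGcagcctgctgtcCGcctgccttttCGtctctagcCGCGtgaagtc
Crabp1 (chr9:54764498-54764797): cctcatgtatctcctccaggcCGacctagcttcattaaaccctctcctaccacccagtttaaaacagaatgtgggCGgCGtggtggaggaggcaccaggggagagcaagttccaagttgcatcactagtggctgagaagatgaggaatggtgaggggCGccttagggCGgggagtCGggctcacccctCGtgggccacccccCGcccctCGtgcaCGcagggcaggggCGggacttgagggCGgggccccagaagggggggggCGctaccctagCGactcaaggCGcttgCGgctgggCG
Map2 (chr1:66175079-66175378): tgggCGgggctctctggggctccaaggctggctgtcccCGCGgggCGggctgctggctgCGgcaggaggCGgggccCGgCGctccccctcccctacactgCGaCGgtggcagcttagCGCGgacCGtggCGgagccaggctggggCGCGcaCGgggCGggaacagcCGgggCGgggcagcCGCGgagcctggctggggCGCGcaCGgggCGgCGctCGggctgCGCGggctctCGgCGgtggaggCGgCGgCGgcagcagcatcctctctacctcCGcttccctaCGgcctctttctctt

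These windows held 25 CG dinucleotides in Olig2, 37 in Sox1, 26 in Tubb3, 17 in Crabp1 and 37 in Map2, and that of Nes, not printed, held 18. The median over 32851 windows of the same length was 7 and the upper quartile 20. Sox1 equalled Map2 and the other windows held fewer. Map2 was the only gene higher in run2 with a window, so a link of CG number with run was not tested. The letters TATAAA, read on both strands, occurred in Olig2 and in none of the other 5, against 13.6% of all windows, and CCAAT, read the same way, in Olig2, Sox1 and Tubb3, against 37.4%. The E-box letters CANNTG, the kind of site that basic helix-loop-helix factors bind, were absent from all 6 windows and present in 72.3% of all windows, and AGGTCA, of the kind bound by retinoic acid receptors, was absent from all 6 and present in 16.3%. No methylation was measured in these libraries.

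Genotype was then compared with run as a term in edgeR's quasi-likelihood test. None of the 9 genes passed the threshold by genotype (0 of 9 at an adjusted p under 0.05, over all tested genes), with 4 of 12645 genes called in all (0.0316%). At an unadjusted p under 0.05 there were 0 of the 9, against 2.32% of all tested genes, and DESeq2 called 0 of the 9 too. The log2 fold change, KO over WT, was positive for 5 and negative for 4 of the 9, with a median of 0.03 beside 0.01 over all tested genes. KO and WT libraries overlapped for each of the 9, while 0.443% of tested genes had no overlap.

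Olig1 was at 19.8 ± 18.0 CPM in KO (SD, n = 5) and 16.6 ± 19.3 CPM in WT libraries (SD, n = 4), where the SD reflects the runs. Its log2 fold change with run as a term was 0.03 (SE 0.27, 95% interval -0.54 to 0.60). Olig2 was at 21.0 ± 19.7 CPM in KO (SD, n = 5) and 15.0 ± 17.5 CPM in WT libraries (SD, n = 4), a log2 fold change of 0.23 (SE 0.26, interval -0.35 to 0.80). For both genes this estimate comes almost wholly from the 3 KO and 2 WT libraries of run1, since both genotypes were at or under the floor in run2. Sox1 had the widest interval of the 9, a log2 fold change of 0.51 (SE 0.51, interval -0.57 to 1.59). A 2-fold change in either direction lay outside the interval for Olig1 and Olig2. For Sox1 a 2-fold increase lay inside the interval and a 2-fold decrease outside it.

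Tubb3 had the largest negative value, 83.1 ± 48.7 CPM in KO (SD, n = 5) and 112 ± 74.1 CPM in WT libraries (SD, n = 4), a log2 fold change of -0.46 (SE 0.24, interval -0.97 to 0.05; edgeR, unadjusted p = 0.073, adjusted p = 0.9998). Within run1 all 3 KO libraries lay below both WT libraries, with a log2 fold change of -0.70 (SE 0.30; edgeR, unadjusted p = 0.038, adjusted p = 0.9995). Within run2 the genotypes overlapped and the value was -0.11 (SE 0.36). The difference between these effects, 0.59 (SE 0.47; edgeR, unadjusted p = 0.24, adjusted p = 0.99996), did not pass the threshold. All within-run values here and below come from a fit in which both runs share 1 spread, so their SEs do not describe either run alone. With each run fitted alone the SE of Tubb3 was 0.19 in run2 and 0.32 in run1, and that of Ncam1 0.20 in run2 and 0.40 in run1.

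Nes, the progenitor filament, had a log2 fold change of -0.36 (SE 0.28, interval -0.96 to 0.25). In run2 both KO libraries of Nes lay below both WT libraries (-0.38, SE 0.49), while in run1 the genotypes overlapped (-0.35, SE 0.38). Ncam1 had -0.08 (SE 0.25, interval -0.60 to 0.45) and Map2 0.04 (SE 0.27, interval -0.54 to 0.63). For Ncam1 both KO libraries were above both WT libraries in run2 (0.21, SE 0.38) and the genotypes overlapped in run1 (-0.30, SE 0.33). With so few libraries an arm, separations within a run arise easily, and their share over all tested genes was not computed. Nothing is therefore read from the separations of Nes, Ncam1, Tubb3 or Gzf1 within a run. Crabp1 had 0.21 (SE 0.24, interval -0.32 to 0.73). Crabp2, with the narrowest interval of the 9, had -0.02 (SE 0.17, interval -0.38 to 0.34). Adjusted p in edgeR was 0.9998 for each of these 5 genes and for Olig1, Olig2 and Sox1.

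**Figure D4:**
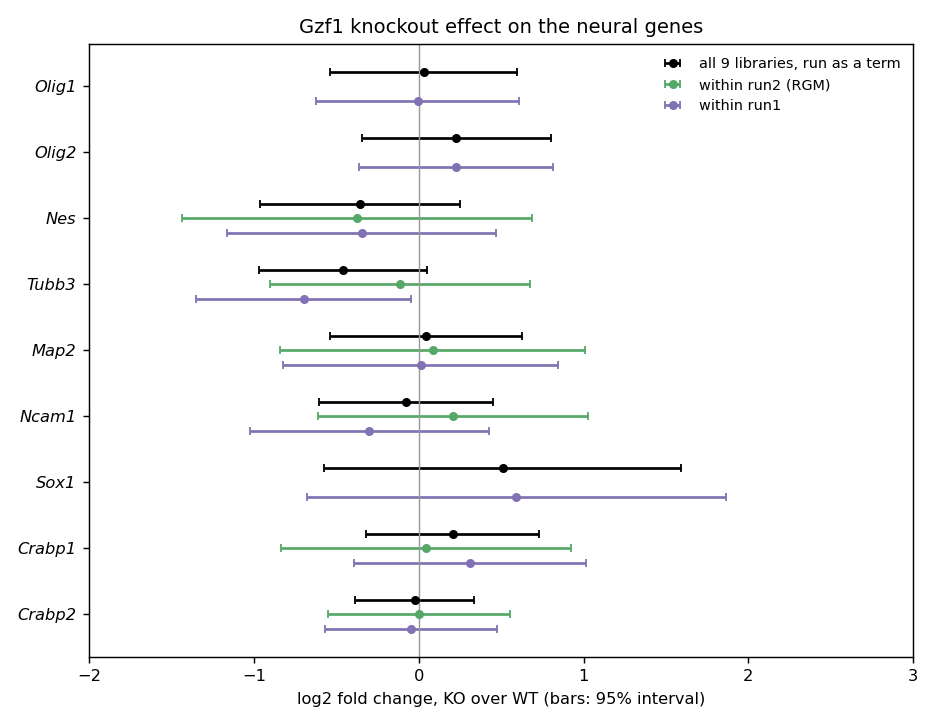
Log2 fold change, KO over WT, of each of the 9 genes with its 95% interval, over all 9 libraries with run as a term, within run2 and within run1. The within-run intervals use a spread shared by both runs. Run2 is left out for Olig1, Olig2 and Sox1, which were at or under the floor there; Tubb3 within run1 is the only interval that does not include 0, and its adjusted p was 0.9995.

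Within run2 only 6 of the 9 genes could be compared, since Olig1, Olig2 and Sox1 had 0 to 3 counts in each library there. Of these 6 edgeR called 0, and of 12645 genes 0 (0%), with 0 of the 6 and 0.822% of all genes at an unadjusted p under 0.05. Within run1 it called 0 of the 9 and 2 genes in all (0.0158%), with Tubb3 alone of the 9, and 3.84% of all genes, at an unadjusted p under 0.05. The difference of the KO effect between the runs, which needs both runs, was called for 0 of the same 6 and for 0 genes in all (0%), with 0 of the 6 and 1.44% of all genes at an unadjusted p under 0.05. DESeq2 called 0 of the genes compared in each of these 3 comparisons.

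Other genes of neural development were taken as lists, whose counts stand beside 8.56% of all tested genes at least 2-fold lower and 9.21% at least 2-fold higher in run2. Of 28 neurogenesis genes 19 were tested, of which 6 were at least 2-fold lower and 1 at least 2-fold higher in run2 (median difference in mean log2(CPM + 1) of -0.76). Gap43, a growth cone protein, was at 5.39 ± 2.20 CPM in run2 (SD, n = 4) and 53.6 ± 11.4 CPM in run1 (SD, n = 5), and L1cam, an axonal adhesion molecule, at 0.641 ± 0.627 CPM in run2 and 11.7 ± 1.57 CPM in run1. L1cam, Nefm (1.53 CPM) and Neurod1 (1.64 CPM), all among the lower genes, had run2 means under the filter level of 2.05 CPM. For such genes the filter itself favours a difference between runs. Of 31 neural progenitor genes 15 were tested, 2 at least 2-fold lower and 5 at least 2-fold higher in run2, among them Otx2, a head organizer factor, at 62.6 ± 10.5 CPM in run2 (SD, n = 4) and 18.0 ± 11.2 CPM in run1 (SD, n = 5). Pax6 (1.04 CPM) and Zic1 (0.604 CPM), also among the higher genes, had run1 means under the filter level. The neural lists did not share 1 direction, nor did the 9 genes.

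Olig1 and Olig2 act again in the oligodendrocyte lineage. Of 20 genes of that lineage 11 were tested, 0 at least 2-fold lower and 1 at least 2-fold higher in run2, which was Mbp, of myelin, at 10.0 ± 2.57 CPM in run2 (SD, n = 4) and 2.18 ± 0.847 CPM in run1 (SD, n = 5). Olig3, of the same family, had 1 count over run2 and 4 over run1. Of 16 genes of Hedgehog signalling and the ventral neural tube 9 were tested, 0 at least 2-fold lower and 1 higher, the Hedgehog receptor Ptch1 (76.2 ± 7.49 CPM in run2, 20.1 ± 4.85 CPM in run1). Of 24 genes of retinoic acid handling 12 were tested, 4 lower and 2 higher by this measure. Rarg, a retinoic acid receptor, was at 19.4 ± 2.37 CPM in run2 (SD, n = 4) and 98.9 ± 24.9 CPM in run1 (SD, n = 5). Rest, which represses neuronal genes outside neurons, was at 15.1 ± 4.97 CPM in run2 (SD, n = 4) and 68.6 ± 17.7 CPM in run1 (SD, n = 5), and was the only gene of 10 repressor genes at least 2-fold apart.

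By genotype 0 members of these 6 lists passed the adjusted threshold in edgeR. Median log2 fold changes, KO over WT, were -0.03 for neural progenitor, 0.01 for neurogenesis, -0.12 for oligodendrocyte, 0.06 for Hedgehog, -0.07 for retinoic acid and 0.10 for repressor genes, beside 0.01 for all tested genes. At an unadjusted p under 0.05 there were 1 of 15 neural progenitor, 3 of 19 neurogenesis and 2 of 11 oligodendrocyte genes, and 0 in the Hedgehog, retinoic acid and repressor lists, beside 2.32% of all tested genes. The feeder fibroblast list had a median of 0.17, with 19 of its 22 tested genes positive, 0 past the adjusted threshold and 0 at an unadjusted p under 0.05. Among mesendoderm genes 6 of 14 were tested, 2 of them at least 2-fold higher in run2, and 0 passed by genotype.

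**Figure D5:**
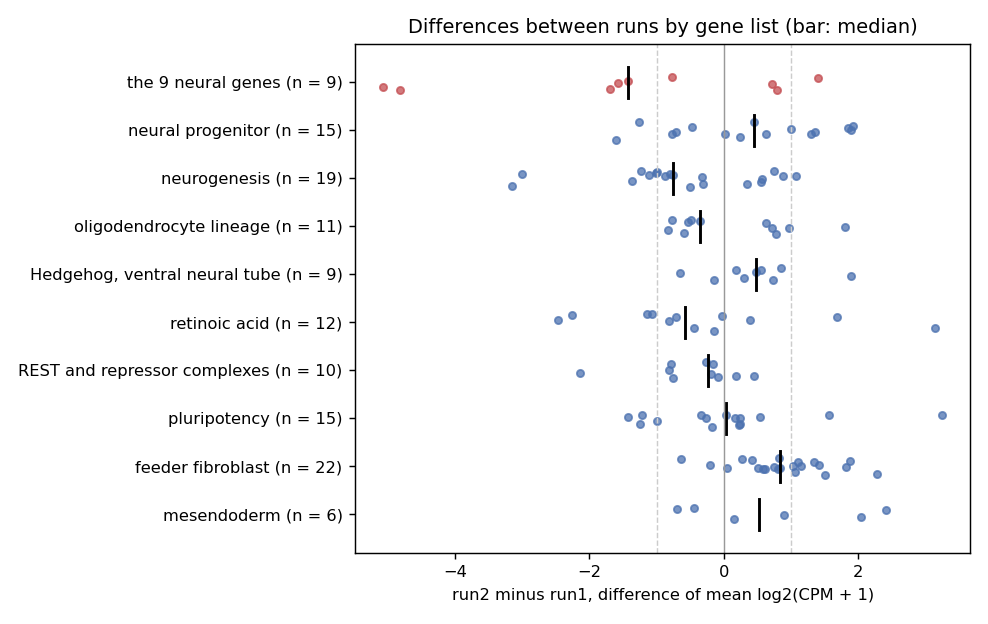
Difference of mean log2(CPM + 1), run2 minus run1, of the 9 neural genes (red) and of the tested genes of each list (blue), with the median as a bar and dashed lines at 2-fold. The 9 genes run from -5.07 (Olig2) to 1.40 (Crabp2), and the lists lie on both sides of 0.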

How the data were processed

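Poly(A)+ RNA of 9 mouse embryonic stem cell libraries was prepared with MARS-seq2.0, which tags 3' ends, per the labels' protocols. The authors deposited raw counts per gene symbol. The submitters' processing notes name STAR, DESeq2 and mm10 and give no roles. The counting tool, its annotation and any use of strand or molecular identifiers were not given in the sources used here. Spike-in rows (92) were left out, 9860 gene rows had no count, and 1858 rows merge several symbols, none of them a row of the 9 genes. Low rows were removed with filterByExpr (minimum count 10, by genotype), and counts were scaled with TMM and tested in edgeR 4.0.16 (R 4.3.3, robust quasi-likelihood) with run and genotype as terms, or with 4 genotype-by-run groups sharing 1 spread. The Benjamini-Hochberg adjustment ran over 12645 genes, with a threshold of 0.05. The SE of a log2 fold change is its size over the square root of F. CPM uses TMM-scaled totals, and descriptions use a pseudocount of 1 CPM. DESeq2 1.42.0 was an alternative. The fit was tested on simulated data.

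To look for a library deposited more than once, counts were compared within genotype and run, and no pair agreed within sampling noise (chi-square per degree of freedom 2.48 to 3.10 in run2 and 13.8 to 24.0 in run1, where the lowest is a V6.5 against the Cas9-GFP library). This does not show that the cultures were independent. Every one of the 9 genes passed the filter, so the permutation test planned for removed genes was not needed. The 9 genes and the lists were chosen with earlier results of these data known. Other genes named were Gzf1, the 3 genes most like Olig1 and Olig2 each, tested genes within 300 kb of Olig2, and members of each list with the highest level or the largest difference between runs. AI662270, Olig3, Nefm, Neurod1, Pax6 and Zic1 were chosen after their values were seen.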

Additional observations from a re-analysis of the deposited data

How the results depend on the processing

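The count of 0 of the 9 genes called by genotype, over all libraries, within run2, within run1 and for the difference between runs, was the same in every alternative run, but not all 9 genes entered each. Olig1, Olig2 and Sox1 were removed by the filter when the run2 libraries were fitted alone, which left 6. The count of 4 genes among all tested became 35 without the low-count filter, 7 with DESeq2, 2 without the run term and 2 with cell line in place of run. It ranged from 2 to 4 when 1 library was left out, and was 2 without KO replicate 1 or 2 or WT replicate 1, 3 or 4. Within run2 the count of 0 became 7 without the filter, 2 with DESeq2, 9 with the run2 libraries fitted alone (chosen after seeing the data), and 0 to 1 with 1 library left out, the 1 without KO replicate 4. Within run1 the count of 2 became 46 without the filter, 4 with DESeq2, 1 with the run1 libraries fitted alone (also chosen afterwards), and 0 to 8 with 1 library left out, with 8 without KO replicate 4, 1 without WT replicate 2 and 0 without KO replicate 1, 2 or 3 or WT replicate 1, 3 or 4. An arm left with 1 library was assumed to vary like the others.

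Log2 fold changes near 0 changed sign. Olig1 was -0.12 with cell line in place of run and -0.12 to 0.26 with 1 library left out. Map2 was -0.032 without the run term, -0.075 with cell line and -0.076 to 0.21 with 1 library left out. Crabp2 was 0.0024 with cell line and -0.12 to 0.078 with 1 library left out, Ncam1 -0.19 to 0.10 and Crabp1 -0.011 to 0.38. The sign of Olig2, Nes, Tubb3 and Sox1 was kept in each alternative that gave a value. Sox1 gave none in 4 of the fits that left out 1 library and under the replicate block, where the filter removed it. The number of the 9 genes at least 2-fold apart between runs was 6, and 6 to 7 with 1 library left out.

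Replicate numbers 1 to 4 occur in both genotypes. Deviations from genotype-by-run means correlated at -0.07, -0.07, 0.30 and 0.34 for numbers 1, 2, 3 and 4, and 2 of 4 KO libraries correlated best with their own number. In an arm of 2 libraries the deviations mirror each other, so the values for numbers 1 and 2 are equal by construction. WT replicates 3 and 4 mirror each other too. These values therefore cannot decide whether the numbers mark pairs, and the numbers were not taken as pairs. With a replicate block 6 genes were called, 0 of the 9 among them, and Olig1 was -0.029, Map2 -0.018 and Ncam1 0.10. The unadjusted p of Tubb3 within run1 was 0.055 with the run1 libraries fitted alone (edgeR). Over all libraries the log2 fold change of Tubb3 was -0.66 to -0.30 with 1 library left out. Without the low-count filter it was -0.47 (SE 0.16; edgeR, adjusted p = 0.58). In a single run2 library the floor was up to 1.18 CPM, and over the 4 run2 libraries together it was 0.252 CPM, which limits Olig1, Olig2 and Sox1.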
